A study of Mus musculus and Homo sapiens with 65 samples.

Results

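Injection of an antisense oligomer into the mouse zygote was examined apart from its target, by setting all 4 late 2-cell libraries made from morpholino-injected embryos against the 3 libraries labelled wild type. These 7 RNA-seq libraries are 7 of the 65 samples in the series, and they were chosen by their labels. For some genes, levels in 2 further libraries are given beside them, without a test. Those came from 2-cell embryos treated with alpha-amanitin, which blocks RNA polymerase II. The injected arm holds 2 libraries from embryos that received morpholinos against Kdm5a and Kdm5b together, and 2 from embryos that received mismatch control morpholinos for the same pair of genes. The 3 wild-type libraries are labelled as wild-type 2-cell embryos and name no injection. The same protocol text stands on all 7 libraries, wild type included: isolated zygotes were injected at 0.5 days post coitum with fluorescein-tagged oligomers, and embryos were grown to the late 2-cell stage in G1 plus medium. Whether the wild-type embryos were cultured and handled like the injected ones is not stated, so a difference in handling other than the injection cannot be told apart from it. The labels give no strain, parental age, oligomer dose or number of embryos per library. No group injected with buffer alone was analysed here, so the puncture of the membrane, the fluid, the fluorescein tag and the oligomer itself cannot be told apart. The labels also do not say whether the replicates were separate collections of embryos, so each p-value measures only how far these libraries scatter, which can include technical error.

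Morpholinos are synthetic antisense oligomers with an uncharged backbone that cells do not readily degrade. Bound near the start of the coding sequence, a morpholino hinders translation of its messenger RNA and usually leaves that RNA in place, so an RNA level does not test whether the block worked. A mismatch control is the same oligomer with enough changed bases to weaken pairing with the target. The late 2-cell stage is when the mouse embryo first transcribes its own genome broadly, while RNA stored in the oocyte is being cleared. Genes that respond to membrane damage, DNA damage, foreign nucleic acid, misfolded protein or oxidation are the usual places to look for an effect of the handling itself.

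The 4 oligomers are shown because the injected arm is defined by them. Each is written 5′ to 3′, and capitals mark the positions at which a targeting oligomer and its control differ.
Kdm5a morpholino: tgaCggCcacCaaaGccctCtca
Kdm5a mismatch control: tgaAggAcacAaaaCccctAtca
Kdm5b morpholino: aGcaCagggCaggCtccgCaacc
Kdm5b mismatch control: aCcaAagggAaggAtccgAaacc
All are 23 bases long, and each control carries 5 changes. Counted from 1 at the 5′ end, with the targeting base first, the changes are C4A, C7A, C11A, G15C and C20A for Kdm5a, and G2C, C5A, C10A, C14A and C19A for Kdm5b. The changes lowered the GC content from 60.9% to 43.5% in the Kdm5a pair and from 69.6% to 52.2% in the Kdm5b pair. The Kdm5a oligomer is complementary to chr6:120364526-120364548 of mm10, on the plus strand in exon 1 of Kdm5a, within the 5′ UTR and 65 bases before the start codon. The Kdm5b oligomer is complementary to chr1:134560294-134560316, on the plus strand in exon 1 of Kdm5b, within the 5′ UTR and 22 bases before the start codon. Each targeting oligomer had 1 such site in its gene, and neither control had a fully complementary site there.

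The transcripts of both targeted genes overlapped between the injected and wild-type arms. KDM5A and KDM5B are demethylases that act on lysine 4 of histone H3. Levels are given in FPKM, which divides a gene's fragments by its length and by the library total. Kdm5a stood at 17.1, 13.6 and 11.2 FPKM in the wild-type libraries, at 12.8 and 9.44 in the mismatch control pair and at 19.5 and 15.4 in the Kdm5a+b pair. Kdm5b stood at 34.8, 54.0 and 65.7 FPKM in wild-type embryos, at 55.3 and 39.6 in the mismatch control pair and at 38.1 and 27.6 in the Kdm5a+b pair. Kdm5a was highest in Kdm5a+b replicate 1 and lowest in mismatch control replicate 2, and Kdm5b was lowest in Kdm5a+b replicate 2. Injected minus wild-type differences were 0.002 ± 0.310 (SE) for Kdm5a and -0.35 ± 0.29 for Kdm5b on the log2(FPKM + 1) scale. Adjusted p was 1.00 and 0.799 (limma, Benjamini-Hochberg). The sign of the Kdm5a difference turned when single libraries were left out. Kdm5a overlaps Ccdc77 on the opposite strand, and strand-specific counting is not stated.

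No gene passed the test of the 4 injected against the 3 wild-type libraries. Genes were tested if 2 or more of the 7 libraries had them at 1 FPKM or above, which kept 12683 genes, of which 12682 had a value in both arms. With limma on log2(FPKM + 1), 0 genes (0.0%) reached a Benjamini-Hochberg adjusted p under 0.05, and the smallest adjusted p was 0.475. At an unadjusted p under 0.05 there were 957 genes (7.55%), of which 469 (3.7%) stood higher and 488 (3.85%) lower after injection. A test with no difference would pass 5% by its threshold. The number of genes whose 4 injected FPKM values all lay outside the wild-type range on one side was 520 (4.1%) above and 527 (4.16%) below, of the 12669 tested genes with no failed estimate. The 5% does not apply to these counts: for each direction, 1 of the 35 ways of drawing 3 of 7 libraries gives the pattern. These shares were not tested. In bulk libraries of whole embryos, fewer cells carrying a transcript and less of it per cell cannot be told apart. Leaving out wild-type replicate 2 made 2 genes pass, Vprbp and Gm12013, and leaving out mismatch control replicate 2 made 1 gene pass, 1700030C10Rik. Each is described with its values further on.

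The median difference of all tested genes was -0.006, and 6277 of them (49.5%) were above 0. FPKM divides by the library total, so a balance of this kind follows in large part from the scaling. From the 10th to the 90th percentile the differences ran from -0.64 to 0.65. The median gene had a 95% interval of ± 0.92 around its difference, on a median SE of 0.42. Precision followed level: the median half-width was 1.03 for the 3263 genes with a mean under 2 FPKM and 0.46 for the 304 genes at 100 FPKM or more. For any gene, a difference smaller than its interval does not reach an unadjusted p under 0.05 with these 7 libraries. Passing adjustment took more than that. The gene Gm20548 differed by 2.48 with an interval of ± 0.89, and its adjusted p was 0.475 (limma). Among the 304 most abundant genes, 29 (9.54%) stood higher and 13 (4.28%) lower at an unadjusted p under 0.05.

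**Figure D1:**
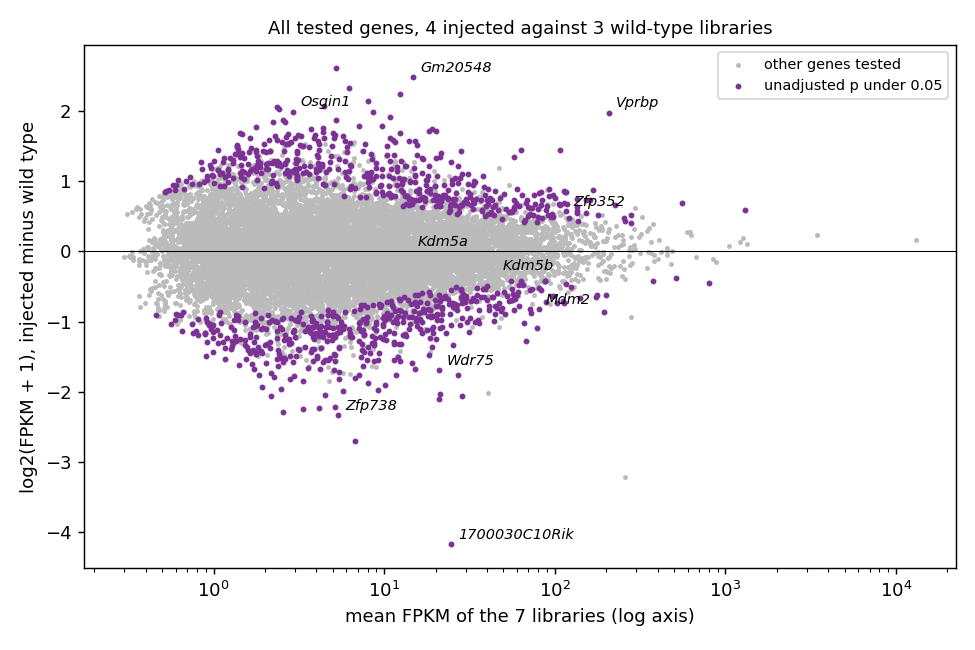
Difference in log2(FPKM + 1), injected minus wild type, against the mean FPKM of the 7 libraries on a log axis, 1 point per tested gene. The 957 genes at an unadjusted p under 0.05 are purple, none passed adjustment, and the scatter narrows as the level rises.

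The injected libraries were sequenced to greater effective depth than the wild-type ones. Read totals are not in the files, so depth was read from the width of the FPKM bounds. The half-width between the bounds had a median of 18.7% to 19.4% of the FPKM in wild-type embryos and 11.9% to 14.8% after injection. With wild-type replicate 1 set to 1, this corresponds to a relative depth of 0.87 to 1.0 in wild type and of 1.59 to 2.26 after injection. Between 10757 and 10950 genes were at 1 FPKM or more in the wild-type libraries and between 10611 and 11228 in the injected ones. The 2 alpha-amanitin libraries had 7977 and 7935 such genes. FPKM is relative to the library total, so setting their levels beside the other 7 libraries does not compare amounts of RNA. Tested genes listed at 0 numbered 279 to 463 per wild-type library and 90 to 343 per injected library. Depth therefore moves with the arms, and its part in the differences below was not tested.

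Injected libraries correlated with each other somewhat more than wild-type libraries did, and they were also the deeper ones. Across the tested genes, which are not independent replicates, Pearson's r of log2(FPKM + 1) ran from 0.863 to 0.928 among the 6 injected pairs and from 0.842 to 0.859 among the 3 wild-type pairs. The 12 pairs of a wild-type with an injected library lay between 0.852 and 0.889. Wild-type libraries were thus no closer to each other than to injected libraries. The median SD of a gene was 0.508 in wild type, 0.358 in the mismatch control pair, 0.311 in the Kdm5a+b pair and 0.449 over the 4 injected libraries.

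**Figure D2:**
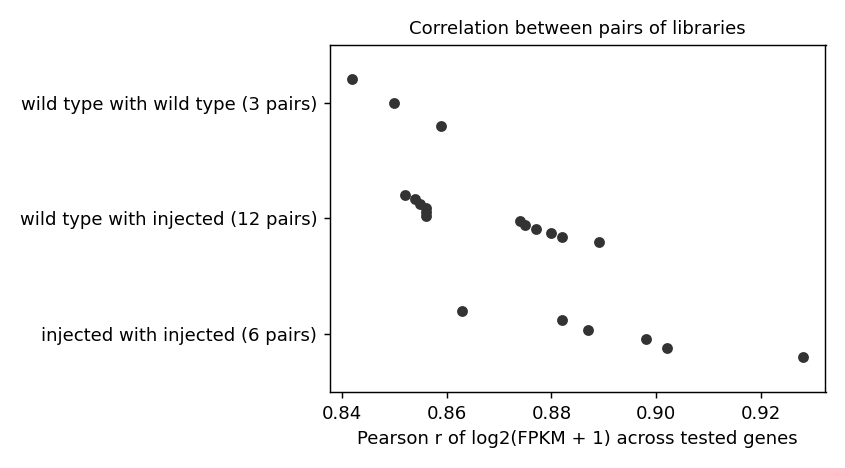
Pearson r of log2(FPKM + 1) across tested genes for each of the 21 pairs of libraries, by kind of pair. Injected pairs reach 0.928, and no wild-type pair exceeds 0.859.

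The libraries carried the expression of their labelled stage. The summed FPKM of 13 late 2-cell markers, such as the Zscan4 and Tdpoz families, ran from 352 to 465 in wild type and from 415 to 517 after injection. That of 10 oocyte markers ran from 521 to 618 and from 496 to 652. Markers of morula and blastocyst summed to 12.3 FPKM or less in every library. Of 13 cumulus markers, 9 were under 1 FPKM in all 7 libraries, with Inha and Foxl2 listed at 0, while Amhr2 reached 11.98. The cumulus sums overlapped, at 12.1 to 15.3 and 10.6 to 14.3. Of 10 sperm markers, 6 were under 1 FPKM in all 7, with Prm1 listed at 0, while Ldhc reached 7.18. The sperm sums were 1.82 to 11.95 and 0.209 to 5.69. Of 9 oviduct markers none was at 0 throughout, 4 were under 1 FPKM in all 7, and Epcam reached 58.5. The oviduct sums were 24.9 to 66.5 and 32.4 to 45.4. Of 10 blood markers, the beta-globin genes Hbb-bt and Hbb-bs and the granulocyte genes S100a8 and S100a9 were listed at 0 in all 7. The highest value among them was 5.72, for Hba-a2, and the blood sums were 0.298 to 6.63 and 3.57 to 11.1.

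Each injected group was also set against wild type on its own, and fewer genes had an unadjusted p under 0.05 in the mismatch control pair. The counts were not tested against each other. Both comparisons use the same 3 wild-type libraries, so they are given side by side. In the mismatch control pair 0 genes (0.0%) passed by limma with Benjamini-Hochberg adjustment, with a smallest adjusted p of 0.873. There 567 genes (4.47%) had an unadjusted p under 0.05, 302 (2.38%) higher and 265 (2.09%) lower. With all libraries this share lay under the 5.0% that a test with no difference would pass. Without wild-type replicate 2, 1 gene passed in the mismatch control pair, Vprbp, and the unadjusted counts were 486 higher and 423 lower. Without mismatch control replicate 2 the lower count was 145. In the Kdm5a+b pair 0 genes (0.0%) passed by limma, and 888 (7.0%) had an unadjusted p under 0.05, 495 (3.9%) higher and 393 (3.1%) lower. The Kdm5a+b share lay above 5.0%, and neither share was tested against that value. The smallest adjusted p there was 0.0629, at Gyg. Without Kdm5a+b replicate 2 those counts were 235 and 177. In this group Gyg passed without wild-type replicate 1 (adjusted p = 0.0499, limma), Gyg and Vprbp passed without wild-type replicate 2 (both 0.0188), and 1700030C10Rik passed without mismatch control replicate 1 (0.0489).

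Gyg stood apart in 1 injected group. It encodes glycogenin, the protein that primes glycogen synthesis. Its levels were 55.6, 28.5 and 46.6 FPKM in wild-type embryos, 54.6 and 51.3 in the mismatch control pair, and 248 and 261 in the Kdm5a+b pair. The mismatch control libraries lay inside the wild-type range and both Kdm5a+b libraries far above it. The alpha-amanitin libraries, at 117 and 157, also lay above the wild-type range. The difference from wild type was 0.33 in the mismatch control pair and 2.57 in the Kdm5a+b pair on the log2(FPKM + 1) scale. The pooled difference was 1.45 ± 0.55, and the gap between the injected pairs was not tested.

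The genes nearest to a shared injection difference were taken by rule: no overlap between arms, an arm mean of 5 FPKM or more, and the 12 smallest p-values in each direction. They come from 316 higher and 377 lower genes that met the level and overlap conditions. None passed, and all 24 had an adjusted p of 0.475 by limma. Their exact permutation p was 0.0571 (two-sided), the smallest that the 35 ways of drawing 3 of 7 libraries allow. The no-overlap rule fixed that value in advance, so it lends no support to any of these genes.

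Among those standing higher, 7 of 12 were non-coding genes or pseudogenes. The wider set was not unusual in this: 85.2% of the 520 genes standing higher without overlap were protein-coding, against 86.4% of all tested genes. Gm20548, an RNA antisense to Wdfy3, had the smallest p. Its levels were 1.97, 4.23 and 3.16 FPKM in wild-type embryos, 12.4 and 25.0 in the mismatch control pair, and 17.0 and 39.7 in the Kdm5a+b pair, a difference of 2.48 ± 0.41. The lowest injected library stood at 12.4 and the highest wild-type one at 4.23. Its alpha-amanitin levels were 21.95 and 19.3. Wdfy3 itself, on the other strand, stood at 16.6, 31.0 and 8.93 in wild type and between 9.37 and 27.6 after injection, so the arms overlapped there. The antisense gene Gm13375 stood at 3.01, 2.34 and 1.04 FPKM in wild-type embryos against 9.33, 14.1, 16.1 and 10.7 after injection. With alpha-amanitin it stood at 14.1 and 11.2. Of the processed pseudogenes there were 4, Zfp353-ps, Gm9840, Gm9727 and Gm11235, whose reads may be shared with their parent genes. Zfp353-ps, for example, stood at 14.6, 12.9 and 11.7 against 31.8, 26.1, 38.0 and 37.2, and at 5.41 and 0.845 with alpha-amanitin. The lincRNA RP24-159O13.1 stood at 2.90, 7.71 and 8.54 in wild type and between 16.5 and 22.0 after injection. With alpha-amanitin it stood at 0.135 and 0.

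The other 5 were protein-coding. Bex1, a small X-linked adaptor protein best known from brain, stood at 9.18, 18.7 and 18.5 FPKM in wild-type embryos, at 36.5 and 29.8 in the mismatch control pair and at 39.7 and 37.8 in the Kdm5a+b pair (difference 1.22 ± 0.29). It was listed at 0 in both libraries of embryos treated with alpha-amanitin, which blocks RNA polymerase II. Smco4, a small single-pass membrane protein, stood at 18.8, 39.0 and 32.2 in wild type and at 56.5, 52.9, 106 and 98.4 after injection (1.35 ± 0.32). Its alpha-amanitin levels were 97.1 and 92.9, inside the injected range relative to the library total, which does not compare amounts of RNA. Pramef8, of the PRAME family, stood at 17.7, 12.54 and 20.7 in wild type and between 30.9 and 49.0 after injection. Ccdc181 and Cuta had differences of 1.78 ± 0.40 and 1.69 ± 0.40 from wild-type levels of 8.12 FPKM or less.

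**Figure D3:**
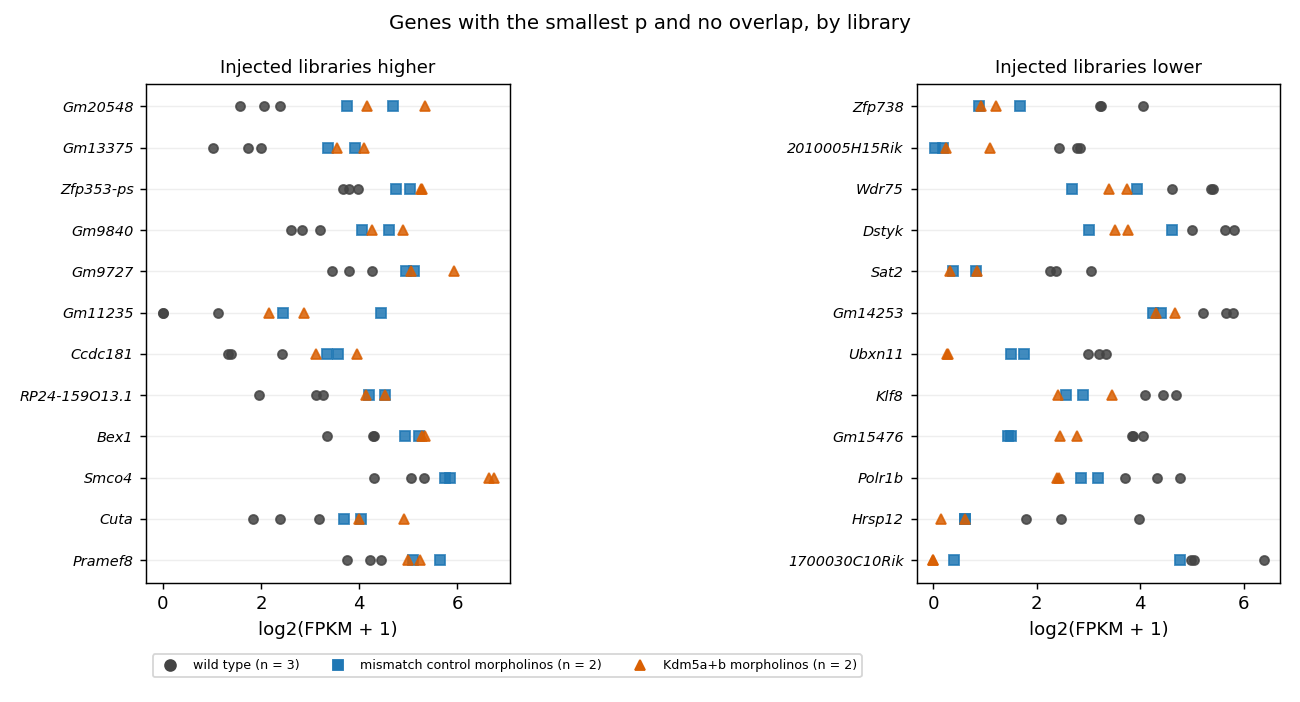
log2(FPKM + 1) in each of the 7 libraries for the 12 genes of each direction with the smallest p, no overlap and an arm mean of 5 FPKM or more. Points are single libraries, and the arms are separated by construction. The difference is 2.48 at Gm20548 and -2.33 at Zfp738, and at 1700030C10Rik 1 mismatch control library sits beside wild type.

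Of those standing lower, 9 of 12 were protein-coding. Zfp738, a KRAB zinc finger gene, stood at 8.30, 15.7 and 8.45 FPKM in wild-type embryos, at 2.20 and 0.84 in the mismatch control pair and at 1.31 and 0.903 in the Kdm5a+b pair (-2.33 ± 0.41). 2010005H15Rik stood at 5.83, 4.42 and 6.15 in wild type and at 0.0199, 0.135, 1.14 and 0.182 after injection. Dstyk, a kinase, stood at 31.1, 48.6 and 55.3 in wild type and at 7.09, 23.4, 10.4 and 12.51 after injection (-1.76 ± 0.37). Klf8, a Krüppel-like transcription factor, stood at 24.8, 15.9 and 20.7 in wild type and between 4.35 and 10.02 after injection. Sat2 and Hrsp12, a deaminase of reactive enamines, were low after injection, at no more than 0.79 and 0.538 FPKM. In the alpha-amanitin libraries both were listed at 0.

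Ubxn11 was lower in every injected library than in wild type, and lowest in the Kdm5a+b pair. It stood at 6.95, 8.26 and 9.11 FPKM in wild-type embryos, at 1.85 and 2.36 in the mismatch control pair and at 0.219 and 0.21 in the Kdm5a+b pair. The difference from wild type was -1.55 in the mismatch control pair and -2.90 in the Kdm5a+b pair, and the gap between these pairs was not tested. Ubxn11 overlaps Sh3bgrl3 on the opposite strand, which stood at 30.3 to 60.4 in wild type and 35.9 to 85.5 after injection.

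The pseudogene 1700030C10Rik had the widest difference of all tested genes and 1 library that departed from its arm. It stood at 30.6, 31.7 and 82.7 FPKM in wild-type embryos, at 0.327 and 26.3 in the mismatch control pair and close to 0 in both Kdm5a+b libraries. Mismatch control replicate 2 lay just under the wild-type range. With all libraries the difference was -4.17 ± 0.98. Without that library it was -5.33, and the gene then passed (adjusted p = 0.00409, limma).

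Wild-type replicate 2 in turn sat with the injected libraries at Vprbp and Gm12013. These and the remaining genes named here outside the rule were chosen after their values were seen. Vprbp, also called Dcaf1, is the substrate receptor of a CUL4 ubiquitin ligase needed for oocyte survival. It stood at 35.1, 231 and 42.6 FPKM in wild-type embryos, at 325 and 213 in the mismatch control pair, and at 266 and 337 in the Kdm5a+b pair. The remaining pair of wild-type libraries lay below all injected ones. The difference was 1.98 ± 0.51 with all libraries (adjusted p = 0.475, limma) and 2.83 without wild-type replicate 2 (adjusted p = 0.00152). Gm12013, a processed pseudogene, was listed at 0 in 2 wild-type libraries, stood at 29.2 in wild-type replicate 2, and lay between 10.6 and 21.2 after injection. Its difference was 2.24 ± 0.97, and 3.88 without wild-type replicate 2 (adjusted p = 0.0163, limma).

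Each wild-type library had genes at which it alone lay in the injected range. With the other 2 wild-type libraries below that range there were 379 such genes for replicate 1, 509 for replicate 2 and 376 for replicate 3. With the other 2 above it, there were 521, 463 and 371, and 12682 genes were tested in all. Fewer had a gap of 1 log2 unit: 3, 7 and 5 with the others below, and 0, 2 and 4 with the others above. Replicate 2, which had the most with the others below, as at Vprbp, was thus not alone in this.

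Stress and damage lists, and the lists that follow them, were read beside the background shares of all tested genes. Those were 3.7% higher and 3.85% lower at an unadjusted p under 0.05. No member of any list passed after adjustment by limma. Of 31 tested p53 targets and DNA damage genes, 1 (3.23%) stood higher and 3 (9.68%) lower, with a median difference of -0.14 against -0.006 for all genes. Mdm2, the ubiquitin ligase that removes p53 and is itself a p53 target, stood at 92.3, 108 and 122 FPKM in wild-type embryos, at 62.8 and 71.6 in the mismatch control pair, and at 47.7 and 59.4 in the Kdm5a+b pair (-0.82 ± 0.21). All 4 injected libraries were below all wild-type ones. Ei24, a p53-induced gene of the endoplasmic reticulum, stood at 58.1, 84.99 and 71.2 in wild type and between 40.3 and 50.8 after injection. Cdkn1a, the cell cycle inhibitor induced by p53, overlapped between arms at 89.7, 36.0 and 102 in wild type and 84.7, 69.0, 120 and 83.1 after injection. Its sign turned without wild-type replicate 2. Mdm4 was the most abundant member, at 904 to 977 in wild type and 717 to 977 after injection. Ddb2, which binds damaged DNA, was the one member on the higher side, at 3.00 to 6.08 and 6.44 to 11.3.

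Genes of nucleic acid sensing and interferon response belong to the route by which cells recognise foreign nucleic acid. Of 21 tested members 1 (4.76%) stood higher and 2 (9.52%) lower, with a median of 0.02. Isg15, a ubiquitin-like interferon product, stood at 1.63, 2.16 and 0.913 FPKM in wild-type embryos and at 0.571 in mismatch control replicate 1, and was listed at 0 in the other injected libraries. Irf7, the interferon regulatory factor, stood at 8.38, 4.22 and 13.7 against 6.31, 0.679, 2.22 and 2.59. Isg15 was lower in every injected library than in any wild-type one, while Irf7 overlapped. Ifitm3, a membrane protein that restricts virus entry, stood at 47.9 and 68.9 in the Kdm5a+b pair against 11.6 to 17.5 in wild type and 18.9 and 15.4 in the mismatch control pair. With alpha-amanitin it stood at 44.5 and 50.5. Trim25 overlapped, at 14.8 to 28.6 and 18.8 to 23.6.

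The immediate early, heat shock and unfolded protein lists stayed near the background. Of 20 immediate early genes, 0 had an unadjusted p under 0.05 in either direction (limma), with a median of 0.10. Klf4 stood at 59.9 to 65.1 FPKM in wild-type embryos and 59.4 to 75.1 after injection, and Dusp1 at 20.99 to 40.99 and 19.5 to 35.1. Of 30 heat shock and chaperone genes, 1 (3.33%) stood higher, Dnajb6, and 1 lower, Cct4, with a median of 0.03. The chaperonin subunit Cct3 and Hsp90ab1 overlapped, at 45.7 to 154 and 77.9 to 108 for the first, and 65.5 to 107 and 75.3 to 143 for the second. Of 27 genes of the unfolded protein and integrated stress response, 1 (3.7%) stood higher and 0 lower, with a median of -0.12. That gene was Creld2, an endoplasmic reticulum stress product, at 8.16 to 19.5 in wild type and 21.04 to 28.2 after injection. Hspa5, the main chaperone of that compartment, overlapped at 81.3 to 157 and 96.7 to 155.

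Of the lists read for stress, the oxidative stress genes had the most members on the higher side. The list holds targets of NRF2, the transcription factor freed by oxidation, and antioxidant enzymes. Of 28 tested, 6 (21.4%) stood higher and 2 (7.14%) lower, with a median of 0.08. Osgin1, an NRF2 target, stood at 0.264, 0.733 and 0.298 FPKM in wild-type embryos, at 6.75 and 3.64 in the mismatch control pair, and at 5.64 and 3.19 in the Kdm5a+b pair (1.99 ± 0.41). Every injected library was above every wild-type one, all at low levels. Its alpha-amanitin levels were 6.84 and 27.1. Gclc, the catalytic subunit of glutathione synthesis, stood at 3.57, 4.22 and 5.54 in wild type and at 9.24, 14.9, 8.14 and 9.49 after injection (1.06 ± 0.34). Gpx4, which reduces lipid peroxides, stood at 0.294, 0.906 and 2.17 in wild type and at 4.24, 3.50, 13.04 and 3.14 after injection. Prdx2, a peroxidase, stood at 22.1 to 29.3 in wild type, 32.2 and 30.3 in the mismatch control pair and 85.4 and 59.5 in the Kdm5a+b pair. The Kdm5a+b values were the highest of the 7 libraries, and the alpha-amanitin levels were 44.1 and 67.1.

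The list also had members on the lower side and members whose arms overlapped. Sqstm1, the autophagy receptor p62 and also an NRF2 target, stood at 10.9, 20.7 and 11.8 FPKM in wild-type embryos and at 2.53, 4.53, 7.38 and 2.90 after injection (-1.57 ± 0.40). The metal-binding Mt2, the most abundant member and 1 of the 6 on the higher side, overlapped and stood at 179, 118 and 214 in wild type and 199, 346, 229 and 299 after injection. The ferritin gene Fth1 overlapped, at 111, 240 and 108 against 238, 65.2, 224 and 211. NRF2 targets were thus found on both sides.

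Genes of membrane repair and the cortical cytoskeleton, which reseal a punctured cell, had the lowest pooled median of the 33 lists. Of 23 tested, 0 stood higher and 1 (4.35%) lower at an unadjusted p under 0.05 (limma), with a median of -0.24. By group the median was -0.15 in the mismatch control pair and -0.12 in the Kdm5a+b pair, and in each pair other lists were lower. The gene on the lower side was Smpd1, acid sphingomyelinase, at 4.06, 6.78 and 6.88 FPKM in wild-type embryos and 1.75 to 2.36 after injection. Rdx, which links membrane to actin, overlapped at 41.3 to 50.6 and 40.7 to 52.8. Pdcd6ip, of the ESCRT machinery, stood at 40.3 to 87.5 and 29.2 to 58.7.

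**Figure D4:**
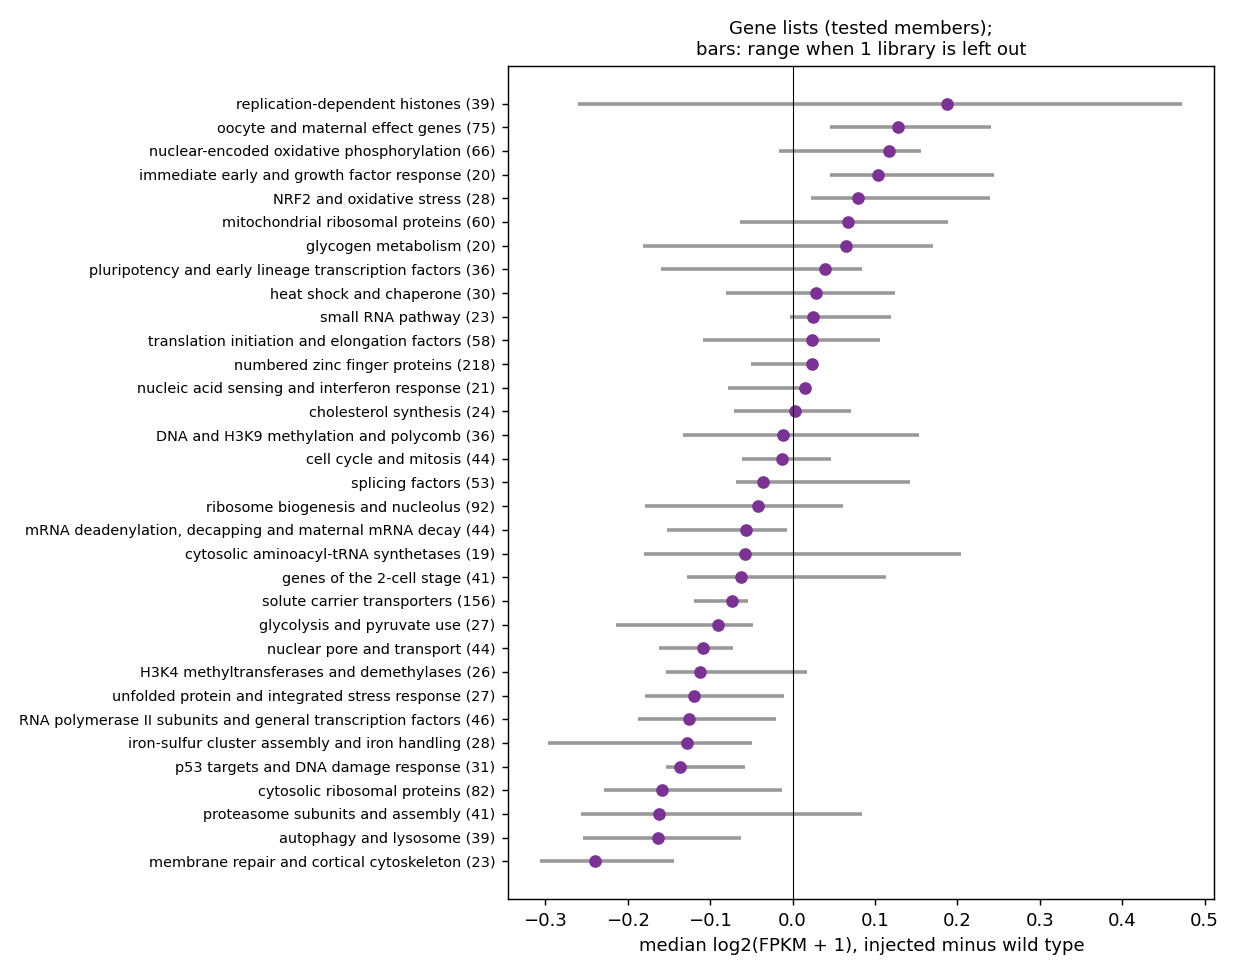
Median difference in log2(FPKM + 1), injected minus wild type, of the tested members of 33 gene lists (number tested in brackets), with bars for the lowest and highest median when 1 library is left out. Medians run from -0.24 for membrane repair to 0.19 for replication-dependent histones, whose bar spans both signs.

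Genome activation was set out by its own genes. Of 41 genes of the 2-cell stage, 2 (4.88%) stood higher and 1 (2.44%) lower, with a median of -0.06. Zfp352, a zinc finger gene transcribed at this stage, stood at 92.0, 79.3 and 99.4 FPKM in wild-type embryos, at 128 and 152 in the mismatch control pair, and at 122 and 137 in the Kdm5a+b pair (0.57 ± 0.18). It was at 1.77 and 3.05 with alpha-amanitin. Tdpoz3 stood at 8.11 to 24.8 and 24.3 to 31.5. Zfp560 was the one on the lower side, at 29.6 to 45.1 in wild type and 18.4 to 28.3 after injection. The next most abundant member, Sp110, overlapped at 65.9 to 112 and 89.7 to 124.

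Stored oocyte transcripts had members on the higher side only, at the unadjusted threshold. Of 75 oocyte and maternal effect genes, 7 (9.33%) stood higher and 0 lower at an unadjusted p under 0.05 (limma), with a median of 0.13. By group the median was 0.01 in the mismatch control pair and 0.27 in the Kdm5a+b pair. Tle6, of the subcortical maternal complex, stood at 12.6, 11.1 and 12.49 FPKM in wild-type embryos and at 31.4, 17.2, 21.2 and 24.5 after injection (0.88 ± 0.27). Zp1, a zona pellucida protein, stood at 8.14, 13.4 and 3.68 against 15.2, 16.4, 14.3 and 19.4. Zfp57, the imprint-protecting zinc finger protein, stood at 237, 246 and 167 against 318, 248, 288 and 301. The remaining 4 were Fbxw21, Ybx2, Sohlh2 and Fmn2. Of the 2 most abundant members, Zbed3 lay at 3024 to 3281 in wild type and 3504 to 4066 after injection, without overlap (0.23 ± 0.14), and Omt2a overlapped at 1148 to 1397 and 1140 to 1570.

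The list for clearance of maternal RNA also holds genes that do not themselves degrade RNA, such as Tead4. Of 44 tested, 1 (2.27%) stood higher and 3 (6.82%) lower, with a median of -0.06. Cpeb1, which controls polyadenylation in the oocyte, stood at 38.7, 14.7 and 31.8 FPKM in wild-type embryos and at 8.18, 9.08, 9.35 and 17.9 after injection, with 1 injected library inside the wild-type range. Cnot4 stood higher, at 17.8 to 26.5 and 25.7 to 49.6, and Cnot6 lower, at 16.2 to 17.3 and 7.37 to 12.3. Both belong to or act with the CCR4-NOT deadenylase. The transcription factor Tead4 was the third on the lower side. The deadenylation adaptor Btg4 overlapped at 305 to 381 and 292 to 424, and so did Pan3 at 270 to 307 and 269 to 340.

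Ribosome biogenesis genes had more members on the lower side. Of 92 tested, 1 (1.09%) stood higher and 8 (8.7%) lower at an unadjusted p under 0.05, with a median of -0.04. Wdr75, a factor for processing of the pre-ribosomal RNA, stood at 23.3, 41.4 and 40.4 FPKM in wild-type embryos, at 14.4 and 5.43 in the mismatch control pair and at 12.3 and 9.5 in the Kdm5a+b pair (-1.69 ± 0.35). Polr1b, the second-largest subunit of RNA polymerase I, stood at 19.04, 26.3 and 11.98 in wild type and at 6.28, 8.14, 4.26 and 4.40 after injection (-1.54 ± 0.36). Both sets of injected values lay below all wild-type values, as the selection rule required. Bop1, of the large-subunit PeBoW complex, stood at 10.5, 13.5 and 14.5 against 5.76, 3.07, 5.76 and 3.29 (-1.36 ± 0.35). Imp4, of the small-subunit processome and the most abundant member, stood at 253, 316 and 212 against 166, 101, 130 and 184 (-0.86 ± 0.23). The others were Rpf2, Nhp2, Wdr74 and Nop10.

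Members of the same machinery also stood higher or overlapped. Ppan, a partner of large-subunit assembly, stood at 19.9, 20.9 and 17.7 FPKM in wild-type embryos and at 25.0, 79.0, 27.5 and 46.2 after injection. Gar1, of the box H/ACA particle, stood at 117 to 144 and 138 to 180. With alpha-amanitin, Wdr75 stood at 5.30 and 3.12, Polr1b at 0.0512 and 0.0457, Bop1 at 0.276 and 0.31 and Imp4 at 6.49 and 22.0, each below the injected libraries.

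Ribosomal protein genes gave a median of -0.16, with 1 of 82 (1.22%) higher and 5 (6.1%) lower. Rps9 stood at 96.9, 143 and 129 FPKM in wild-type embryos and at 84.1, 91.8, 60.5 and 76.4 after injection (-0.64 ± 0.22). Its arms did not overlap, while Rpl41, the most abundant member, overlapped at 138 to 269 and 163 to 274. Ribosomal protein genes have many processed pseudogenes, and how shared reads were assigned is not stated.

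**Figure D5:**
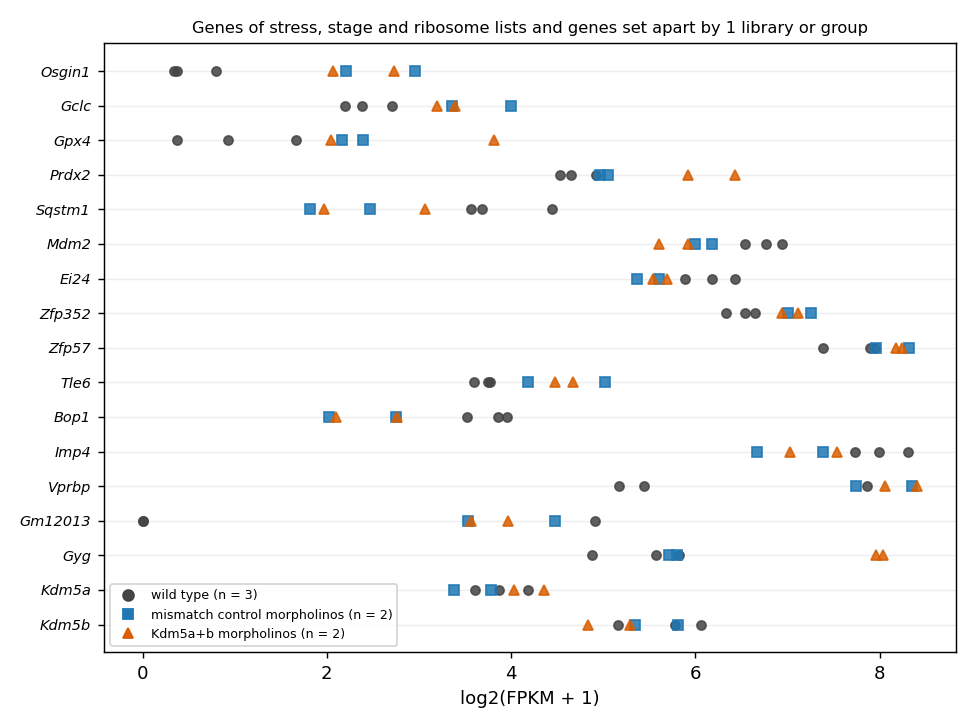
log2(FPKM + 1) in each of the 7 libraries for members of the stress, stage and ribosome lists, for Vprbp, Gm12013 and Gyg, and for both targeted genes. Osgin1, Mdm2 and Bop1 show separated arms, and wild-type replicate 2 sits with the injected libraries at Vprbp (231 FPKM) and Gm12013. Among these 7 libraries Gyg is high only in the Kdm5a+b pair.

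The genes at an unadjusted p under 0.05 were more abundant than tested genes in general. Their median FPKM was 10.6 on the higher side and 7.9 on the lower side, against 5.29 for all tested genes. The threshold itself favours abundant genes, since the median SE was 0.473 under a mean of 2 FPKM and 0.209 at 100 FPKM or more. Protein-coding genes made up 83.4% of the 469 on the higher side, 86.1% of the 488 on the lower side and 86.4% of all tested. The median longest transcript was 2588, 2787 and 3048 bases, and the median GC content 50.4%, 48.9% and 49.3%. A run of 12 or more bases complementary to an injected oligomer was found in transcripts of 3.0%, 1.65% and 2.91% of genes with an annotation. Median levels in the alpha-amanitin libraries were 5.63, 1.79 and 2.08 FPKM, with no matching of the gene groups for level.

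Of the tested genes, 1 was listed at 0 in all wild-type libraries and reached 1 FPKM in all injected ones. It was Hba-a2, alpha-globin, at 1.33 and 2.00 FPKM in the mismatch control pair and 1.15 and 5.72 in the Kdm5a+b pair. The reverse pattern was met by 0 genes. A deeper library lists fewer genes at 0, as given above, and the beta-globin genes were listed at 0 throughout. The part of depth or of blood RNA in this value was not tested.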

How the data were processed

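Per the labels' protocols, RNeasy Micro extraction preceded TruSeq library preparation. BWA, Picard, Cufflinks, Trimmomatic and SAMtools, without their roles, and the build mm10 are named per the submitters' processing notes. The authors deposited FPKM per gene with bounds and a status, per the file headers. Which aligner and annotation made them is not given in the sources used here.

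From those FPKM, a status of FAIL was set to missing, which touched 15 genes. The model was fitted to log2(FPKM + 1) by limma 3.58.1 (R 4.3.3), with eBayes and a trend, 4 injected against 3 wild-type libraries (5 residual degrees of freedom), two-sided, with Benjamini-Hochberg adjustment. The pseudocount understates differences of genes at low FPKM. Each injected group was compared in a 3-group fit. Biotypes, lengths and GC content came from GENCODE M21, which held 31670 of 32287 gene IDs (98.1%). Oligomer sites were found by exact match. Named genes were those without overlap at an arm mean of 5 FPKM or more with the 12 smallest p-values per direction, since none passed, then the 2 most abundant members of each of the 12 lists of stress, stage and ribosome genes, and both targets. The members, gene lists and other named genes were chosen with earlier results of these data known. Alternatives covered the pseudocount, filters, scaling, the model, the replicate number as a block, and single libraries left out. Deviations of same-numbered libraries gave no sign of pairing by replicate number.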

Additional observations from a re-analysis of the deposited data

Results flagged for a closer look

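In the 4 injected libraries, 1 library stood far from the other 3 at 10 of the 77 genes checked. For genes taken at random, chance alone gives about 1 in 20 such gaps. Many of these 77 were chosen by their values, so that rate need not hold for them. In Kdm5a+b replicate 2 these were Gm9727 at 59.84 FPKM, Hrsp12 at 0.114, Pdcd6ip at 58.73 and Zbed3 at 4066. In Kdm5a+b replicate 1 they were 2010005H15Rik at 1.144 and Gpx4 at 13.04. In mismatch control replicate 2 they were Gm11235 at 20.85, 1700030C10Rik at 26.27 and Fth1 at 65.15. In mismatch control replicate 1 it was Isg15 at 0.5711, with the other 3 listed at 0.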

How the results depend on the processing

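Of 1078 pairs of a named gene with an alternative setting, 1045 kept the direction of the difference without passing, 3 newly passed and 30 turned sign. The 3 were Vprbp (2.83) and Gm12013 (3.88) without wild-type replicate 2, and 1700030C10Rik (-5.33) without mismatch control replicate 2. With a filter of 5 FPKM in at least 2 of 7 libraries, the count of genes lower at an unadjusted p under 0.05 was 323 against 488, over fewer genes tested.

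Leaving out each library in turn, the pooled comparison passed between 0.0 and 2.0 genes by limma, with 347 to 594 higher and 341 to 596 lower at an unadjusted p under 0.05. The mismatch control comparison passed 0.0 to 1.0, with 206 to 486 higher and 145 to 423 lower, and the Kdm5a+b comparison 0.0 to 2.0, with 235 to 632 higher and 177 to 509 lower. The genes that turned sign all overlapped between the arms. Their differences ran from -0.15 to 0.17 for Kdm5a, -0.13 to 0.61 for Cdkn1a, -0.33 to 0.12 for Trim25, -0.36 to 0.10 for Dusp1, -0.46 to 0.40 for Cct3, -0.24 to 0.23 for Hspa5, -0.047 to 0.106 for Rdx, -0.114 to 0.07 for Btg4, -0.026 to 0.086 for Pan3 and -0.39 to 0.09 for Rpl41. Quantile normalization turned Hspa5 to -0.015 and Pan3 to -0.03. The cause was not tested.

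The deviations of same-numbered libraries gave no sign of pairing, with correlations of -0.042, 0.02 and 0.048. The highest correlation between whole libraries, 0.928, was still that of mismatch control replicate 1 with Kdm5a+b replicate 1. These were also the deepest libraries, at relative depths of 2.26 and 1.96. With the replicate number as a block, 0 genes passed in the 3 comparisons, and the unadjusted counts were 431 higher and 465 lower for all injected libraries, 301 and 279 for the mismatch controls, and 439 and 382 for the Kdm5a+b libraries. The block turned Kdm5a to -0.137, Trim25 to 0.121 and Rpl41 to 0.09.

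Of the medians of 33 gene lists, 14 kept their sign with any 1 library left out, and 19 turned. Read totals are unknown, and only relative depth was read from the FPKM bounds.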

Other observations

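The lists below are set beside the shares of all tested genes, 3.7% higher and 3.85% lower at an unadjusted p under 0.05 by limma. Of 36 genes of DNA methylation, H3K9 methylation and the polycomb complexes, 3 (8.33%) stood higher and 1 (2.78%) lower. None passed adjustment. The genes named here were chosen after their values were seen. Ezh2, the methyltransferase of polycomb repressive complex 2, stood at 67.0, 83.9 and 54.7 FPKM in the 3 wild-type libraries and at 107, 119, 99.6 and 155 after injection (0.80 ± 0.22). Rnf2, a ubiquitin ligase of the other polycomb complex, stood at 83.9 to 122 and 61.8 to 78.6, below wild type in every injected library. Cbx1, a reader of methylated H3K9, stood at 10.2 to 19.4 and 21.1 to 34.2. Tet3, which oxidises methylated cytosine in the zygote, stood at 132, 108 and 96.1 in wild type, at 109 and 154 in the mismatch control pair and at 251 and 279 in the Kdm5a+b pair. Its highest values thus came from 1 injected group, and its alpha-amanitin levels were 177 and 171. Of 26 H3K4 methyltransferases and demethylases, 0 had an unadjusted p under 0.05 in either direction (limma).

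Replication-dependent histone genes had the highest median of the 33 lists, 0.19, with 5 of 39 (12.8%) higher and 1 (2.56%) lower. Without wild-type replicate 2 the median was -0.26. Hist1h2bh stood at 12.2, 10.01 and 2.51 FPKM in the 3 wild-type libraries and at 18.97, 16.7, 39.4 and 34.4 after injection, while Hist1h2bm stood at 46.9 to 101 and 24.01 to 58.8. By group the median was 0.06 in the mismatch control pair and 0.60 in the Kdm5a+b pair. These messages end in a stem-loop in place of a poly(A) tail, and the labels used here do not say how messenger RNA was selected. Autophagy and lysosome genes had 0 of 39 higher and 4 (10.3%) lower. Ctsa, a lysosomal protease, stood at 78.04, 63.0 and 90.1 in wild type and at 36.7, 42.0, 51.5 and 40.3 after injection (-0.83 ± 0.22).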
